A study of Homo sapiens with 17 samples.

Results

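The 36 genes described here encode subunits of chromatin repressor complexes, chosen by symbol from 58278 gene identifiers in the count files. They fall into 13 genes of the nucleosome remodelling and deacetylase complex (NuRD), 9 genes of heterochromatin protein 1 (HP1) and histone H3 lysine 9 (H3K9) methylation, 6 genes of polycomb repressive complex 2 (PRC2), 6 of polycomb repressive complex 1 (PRC1) and 2 of the CoREST complex. The rule names them by complex and uses no measured value, though it was written with earlier results of these data known. RNA was sequenced from MOLM13, an acute myeloid leukemia cell line that carries the fusion oncogene MLL-AF9, in 17 libraries. In the first experiment, 3 libraries were from cells with a HOXA9 CRISPR knockout (HOXA9_KO), 3 from cells with a SAFB knockout (SAFB_KO) and 3 from cells with a non-targeting CRISPR control (NT). In the second, 4 libraries were from MEIS1 knockout cells (MEIS1_KO) and 4 from the non-targeting controls of that experiment (NT_MEIS1ex). The labels give no guide sequence, time after editing or statement that cells were clonal. They also do not say that replicates came from separate cultures, so p-values measure the spread between these libraries. All groups are of this one cell line and carry MLL-AF9.

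NuRD joins a chromatin remodelling ATPase to histone deacetylases, and removes acetyl groups from histones at enhancers and promoters. HP1 proteins bind methylated H3K9, which SUV39H1, SUV39H2, SETDB1 and the EHMT1 and EHMT2 pair deposit. PRC2 methylates histone H3 lysine 27 and PRC1 reads that mark through its CBX subunits and ubiquitinates histone H2A. CoREST joins the lysine demethylase KDM1A, also called LSD1, to histone deacetylases. HOXA9 and MEIS1 are homeodomain transcription factors that keep MLL-rearranged leukemia cells immature, and SAFB is a DNA- and RNA-binding protein of the nuclear matrix. The study's title places HOXA9 and SAFB together in a repressive complex. The comparisons below show whether the RNA of such complexes' subunits changed when each factor was knocked out.

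Libraries held 30737884 to 67842104 reads assigned to genes in the HOXA9 and SAFB experiment and 23264176 to 33232459 in the MEIS1 experiment. Mitochondrial ribosomal RNA took 22.5% to 35.5% of assigned reads in the former and at most 0.00941% in the latter. Levels are given in CPM, a gene's count relative to the library's total, with the totals scaled within each experiment by edgeR's TMM method, so a level in one experiment cannot be set against a level in the other. HOXA9 RNA was at 40.5, 41.98 and 40.1 CPM in NT and 21.9, 21.2 and 21.1 CPM in HOXA9_KO. SAFB was at 40.4, 33.6 and 40.9 CPM in NT and 22.2, 20.4 and 19.4 CPM in SAFB_KO. MEIS1 was at 31.8, 32.8, 31.7 and 33.4 CPM in NT_MEIS1ex and 10.6, 10.3, 12.8 and 10.98 CPM in MEIS1_KO. Each targeted RNA was thus lower in every library of its own knockout, and transcript remained in all of them. MEIS1 was also at 16.7, 16.1 and 17.7 CPM in HOXA9_KO against 48.4, 48.6 and 50.4 CPM in NT. The summed level of 9 myeloid marker genes was 5512 to 5635 CPM in NT, 13530 to 15248 CPM in SAFB_KO and 29683 to 32639 CPM in HOXA9_KO. It was 4394 to 5987 CPM in NT_MEIS1ex and 7978 to 8280 CPM in MEIS1_KO. Most of each sum, and of its rise, was the single gene LYZ. LYZ was at 4099 to 4216 CPM in NT, 12090 to 13758 CPM in SAFB_KO and 28045 to 30985 CPM in HOXA9_KO. It was at 2946 to 4550 CPM in NT_MEIS1ex and 6417 to 6789 CPM in MEIS1_KO. Markers of the erythroid and megakaryocyte lineages summed to at most 3.96 CPM and lymphoid markers to at most 26.3 CPM in any library. The 22 proliferation genes, all of the cell cycle or DNA replication, summed to 2724 to 2848 CPM in NT, 2449 to 2524 CPM in SAFB_KO and 1639 to 1708 CPM in HOXA9_KO. In the MEIS1 experiment they summed to 3667 to 3912 CPM in the controls and 3488 to 3730 CPM in the knockout. In bulk RNA, fewer cells of a type and less RNA per cell cannot be told apart.

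In HOXA9_KO, 17 of the 36 genes were lower than in NT and 7 were higher at an adjusted p below 0.05 (edgeR's quasi-likelihood test with Benjamini-Hochberg adjustment over all 18876 genes tested). All 36 passed the filter on low counts in this and every other comparison. These are 47.2% and 19.4% of the set, where 29.9% of all tested genes were lower and 27.6% were higher. Among the 8608 genes with a mean of at least 10 CPM, where 33 of the 36 stand, 29.6% were lower and 44.7% were higher; this level was set after the values were seen. The median log2 change of the set was -0.14, against -0.07 over all genes. The largest falls were of EZH2, BMI1 and RBBP7, and the largest rises of JARID2 and RCOR1. Scaling the libraries to nuclear protein-coding counts instead of by TMM lowers the median log2 change of all genes by 0.25, and 30 of the 36 were then lower and 2, JARID2 and RCOR1, were higher. Under that scaling 49.2% of all tested genes were lower and 15.2% higher. Over all genes, 48.0% of calls were higher under TMM and 23.5% under that scaling. The 22 proliferation genes fell with the members, 21 of 22 lower with a median log2 change of -0.83. Of the 9 myeloid markers 8 were higher and 1 lower. Mitochondrial ribosomal RNA was 31.9% to 35.5% of assigned reads in HOXA9_KO and 22.5% to 28.4% in NT, and reads in no annotated feature were 8.65% to 9.27% and 16.4% to 18.1%. The part of these in the members' change was not tested.

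In SAFB_KO, compared with the same NT libraries, 6 members were higher and 6 lower, each 16.7% of the set, where 20.2% of all tested genes were higher and 15.3% lower. Among the 8608 genes with a mean of at least 10 CPM, 37.5% were higher and 14.9% lower. The share of members that was lower was near both backgrounds. The share that was higher was near that of all genes and below that of genes of at least 10 CPM. Their median log2 change was -0.012 against -0.02 over all genes and 0.076 over those of at least 10 CPM. The largest changes were the rise of JARID2 and the fall of EZH1. Under nuclear protein-coding scaling, which lowers the median of all genes by 0.14, 2 members, JARID2 and RCOR1, were higher and 18 lower. Over all tested genes 29.3% were then lower and 9.07% higher. That scaling took the share of higher calls over all genes from 56.9% to 23.6%. Of the proliferation genes 14 of 22 were lower, with a median log2 change of -0.17. Of the 9 myeloid markers 6 were higher and 2 lower, and under nuclear protein-coding scaling 5 were higher and 3 lower. The part of both lists in the members' change was not tested.

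In MEIS1_KO, 2 members were higher (JARID2 and RCOR1) and 4 lower (MTA1, HDAC2, CBX2 and KDM1A), where 4.97% of the 15744 genes tested were higher and 3.84% lower. Those counts are 5.56% and 11.1% of the set. Among the 9196 genes with a mean of at least 10 CPM in this experiment, 6.19% were higher and 5.65% lower. The median log2 change of the members was -0.040, against 0.00 over all genes. These calls rest on single libraries. Without replicate 3 of MEIS1_KO edgeR called 0 of the 36 in either direction, with 2 higher and 6 lower at an unadjusted p below 0.05. Without replicate 3 of NT_MEIS1ex it called 0 higher and 2 lower, with 2 higher and 11 lower at an unadjusted p below 0.05. The counts were 1 higher and 1 lower without replicate 1 of MEIS1_KO, 1 and 2 without its replicate 2, 1 and 3 without its replicate 4, and 1 and 2 without replicate 4 of NT_MEIS1ex. Under nuclear protein-coding scaling 2 were higher and 2 lower, where 6.22% of all tested genes were higher and 2.86% lower. The share of higher calls over all genes was then 68.5% instead of 56.5%. The proliferation genes were lower in 3 of 22 cases (median log2 change -0.085) and 5 of 9 myeloid markers were higher, and their part was not tested.

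**Figure D1:**
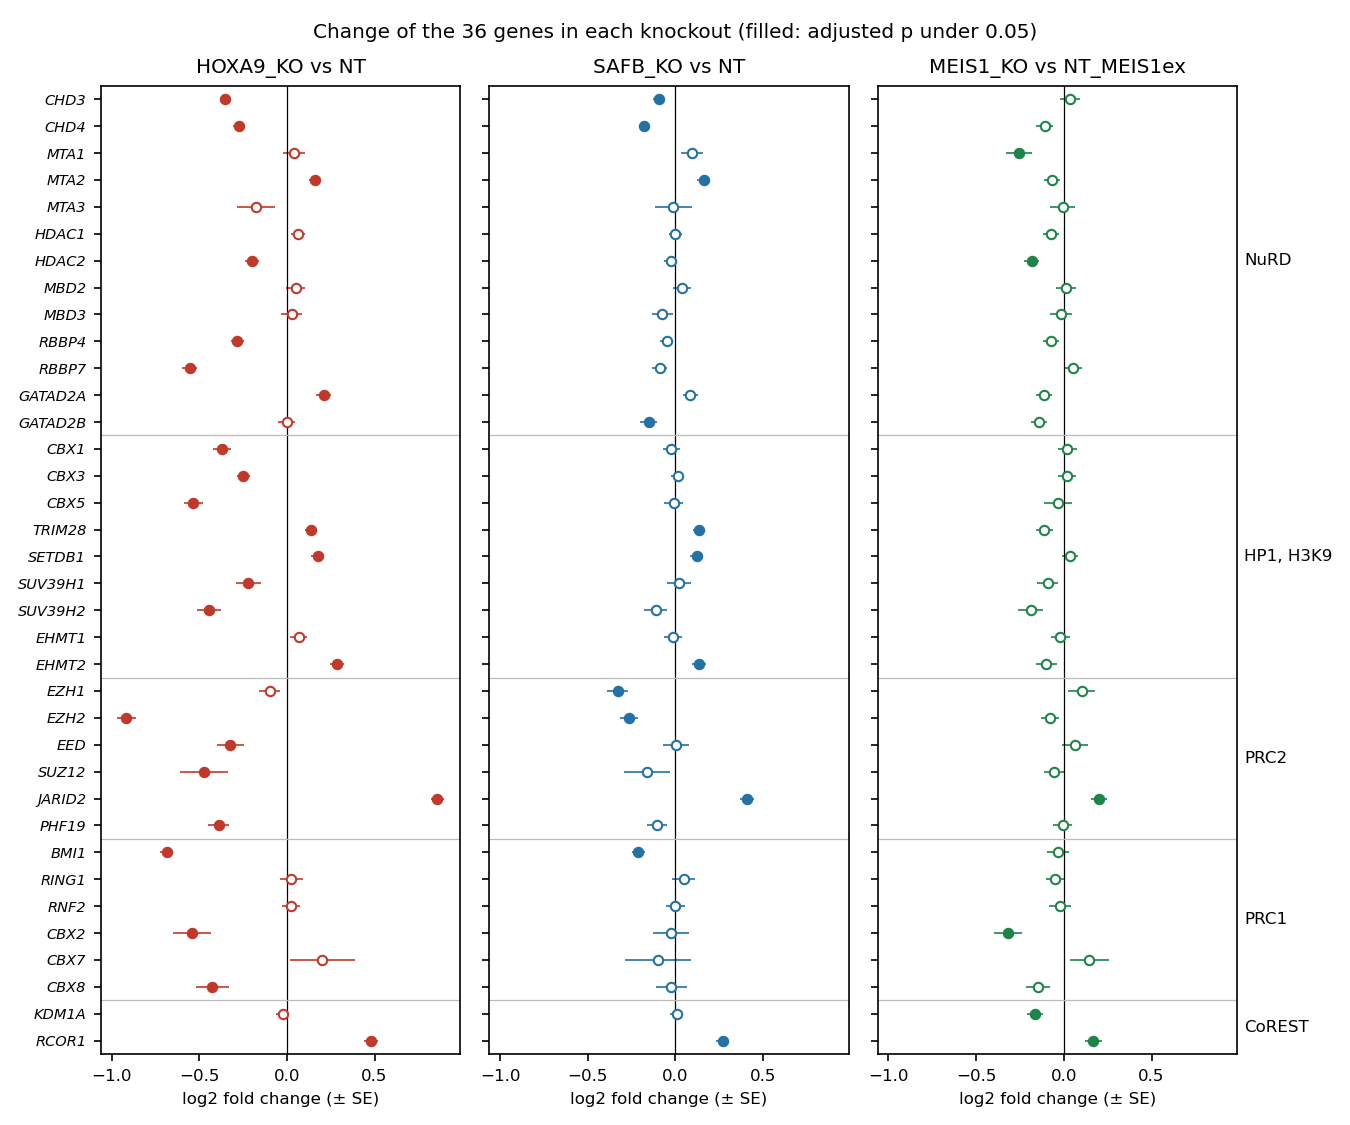
Log2 fold change with its standard error (x axis) of each of the 36 genes (y axis, grouped by complex) in HOXA9_KO and SAFB_KO against NT and in MEIS1_KO against NT_MEIS1ex. Filled points passed an adjusted p of 0.05: 24 in HOXA9_KO, 12 in SAFB_KO and 6 in MEIS1_KO. EZH2 and BMI1 lie farthest to the left and JARID2 farthest to the right in HOXA9_KO.

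PRC2 held both the largest fall and the largest rise. Gene positions are those of GENCODE 29 on GRCh38. The catalytic subunits of PRC2 are EZH2, which is high in dividing cells, and EZH1. EZH2 (ENSG00000106462.10, chr7:148807383-148884321, minus strand) was at 44.9, 44.8 and 45.1 CPM in NT, 23.1, 23.7 and 24.6 CPM in HOXA9_KO and 37.4, 36.9 and 38.01 CPM in SAFB_KO. All HOXA9_KO libraries lay below all SAFB_KO libraries, and these below all NT libraries. The log2 change was -0.92 ± 0.053 (SE) in HOXA9_KO (adjusted p = 8.53e-21, n = 3 against 3) and -0.26 ± 0.05 in SAFB_KO (adjusted p = 2.97e-05, edgeR). In the MEIS1 experiment EZH2 was at 49.97, 51.6, 51.9 and 49.4 CPM in the controls and 47.99, 49.2, 49.5 and 45.2 CPM in the knockout, ranges that overlapped, with a log2 change of -0.079 ± 0.052 (adjusted p = 0.393). EZH1 had another pattern: it was at 29.8, 30.04 and 30.8 CPM in NT, 29.5, 27.6 and 27.5 CPM in HOXA9_KO and 22.3, 24.7 and 24.9 CPM in SAFB_KO. It fell in SAFB_KO, by a log2 value of -0.33 ± 0.058 (adjusted p = 8.92e-06, edgeR), and did not pass in HOXA9_KO (-0.099 ± 0.058, adjusted p = 0.142) under TMM scaling. Under nuclear protein-coding scaling EZH1 was lower in both, with -0.35 in HOXA9_KO (adjusted p = 1.10e-06) and -0.47 in SAFB_KO (adjusted p = 8.96e-09, edgeR). Compared directly, EZH1 was higher in HOXA9_KO than in SAFB_KO (0.23 ± 0.061, adjusted p = 0.00172), a call lost under nuclear protein-coding scaling, and EZH2 was lower (-0.65 ± 0.054, adjusted p = 1.61e-14).

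JARID2, which has lost demethylase activity and helps recruit PRC2 to chromatin, moved the opposite way. JARID2 (ENSG00000008083.13, chr6:15246296-15522040, plus strand) was at 64.6, 65.5 and 64.8 CPM in NT, 85.9, 88.1 and 84.8 CPM in SAFB_KO and 114, 117 and 122 CPM in HOXA9_KO. The 3 groups did not overlap, with SAFB_KO between the other two. It rose 1.81-fold in HOXA9_KO (log2 0.86 ± 0.038, adjusted p = 2.72e-25) and 1.33-fold in SAFB_KO (log2 0.41 ± 0.038, adjusted p = 1.26e-12, edgeR). In the MEIS1 experiment it was at 121, 129.9, 120.3 and 118 CPM in the controls and 144, 136, 144 and 137 CPM in the knockout. Every knockout library lay above every control, and the rise was 1.15-fold (log2 0.20 ± 0.048, adjusted p = 0.0139, edgeR). That last call was lost without replicate 3 of MEIS1_KO or of NT_MEIS1ex. In HOXA9_KO and SAFB_KO the rise of JARID2 passed in all 17 alternatives run.

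The other PRC2 genes were EED, which binds the methylated histone tail, SUZ12, the scaffold of the complex, and PHF19, an accessory subunit that binds methylated H3 lysine 36. EED was at 16.7, 16.2 and 17.5 CPM in NT and 12.2, 13.4 and 14.6 CPM in HOXA9_KO, and fell with a log2 change of -0.32 ± 0.075 (adjusted p = 2.53e-04, edgeR). PHF19 was at 33.9, 31.95 and 31.5 CPM in NT and 22.8, 25.9 and 25.7 CPM in HOXA9_KO, and fell with a log2 change of -0.39 ± 0.059 (adjusted p = 1.33e-07). SUZ12 was at 83.1, 61.7 and 58.8 CPM in NT and 50.3, 47.03 and 50.004 CPM in HOXA9_KO, with a log2 change of -0.47 ± 0.14 (adjusted p = 0.0237). Replicate 1 of NT set much of that difference: the log2 change ranged from -0.56 to -0.29 when 1 library was left out, and the call was lost without any one of the 3 HOXA9_KO libraries. A SUZ12 pseudogene also held reads equal to 38.5% of those of SUZ12, so reads of the pair may have been split. In SAFB_KO the 3 genes had log2 changes of 0.0036 ± 0.072 (EED), -0.16 ± 0.13 (SUZ12) and -0.11 ± 0.057 (PHF19), and none of these passed. In MEIS1_KO they had 0.063 ± 0.074, -0.054 ± 0.06 and -0.0071 ± 0.053, in that order, and none passed either. PRC2 as a whole thus had 4 of 6 genes lower and 1 higher in HOXA9_KO, 2 lower and 1 higher in SAFB_KO, and JARID2 alone, higher, in MEIS1_KO. Under TMM scaling 29.9% of all tested genes were lower and 27.6% higher in HOXA9_KO, 15.3% and 20.2% in SAFB_KO, and 3.84% and 4.97% in MEIS1_KO. The counts under nuclear protein-coding scaling were 5 lower in HOXA9_KO and 3 in SAFB_KO, with 1 higher in each. All tested genes were then lower in 49.2% and higher in 15.2% of cases in HOXA9_KO, and 29.3% and 9.07% in SAFB_KO.

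**Figure D2:**
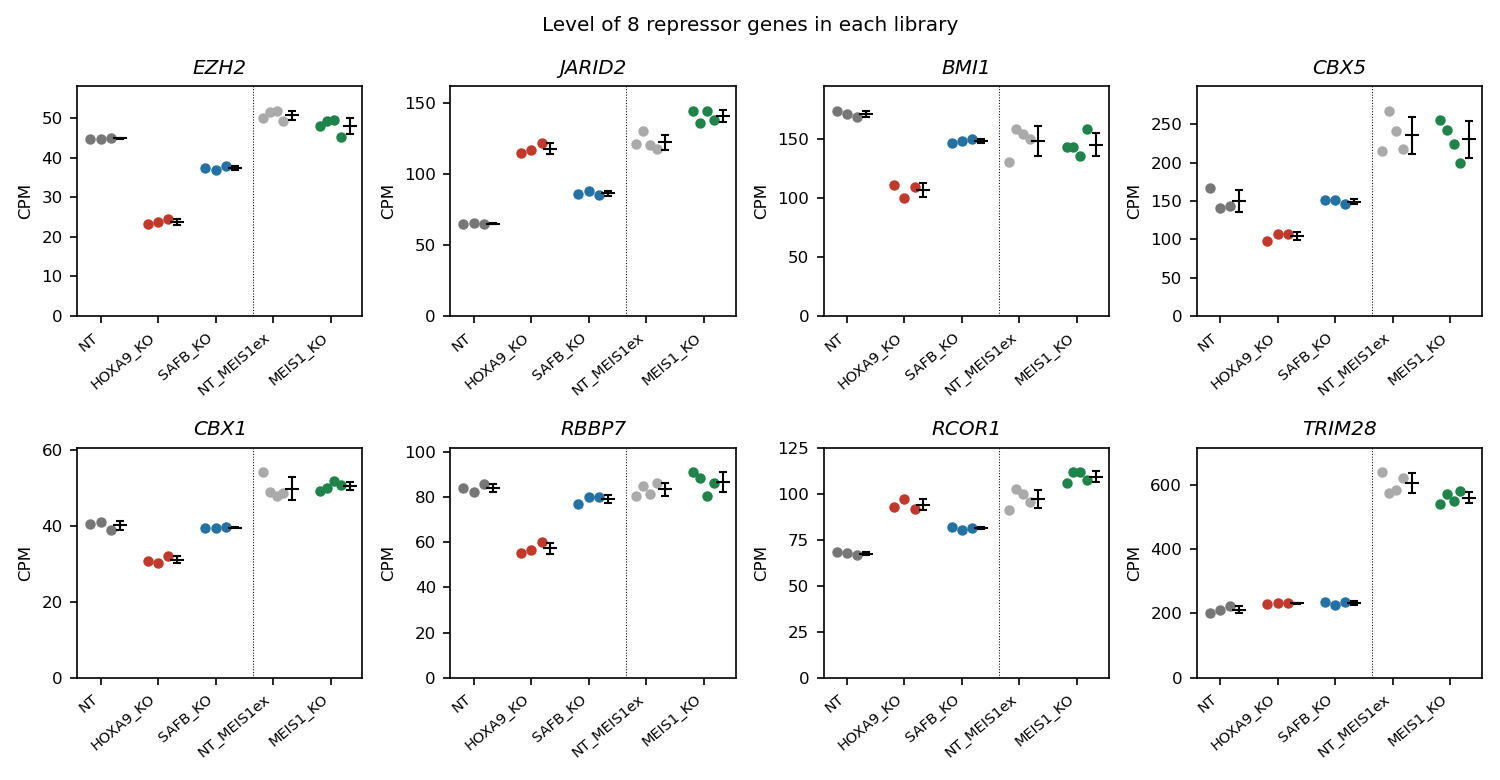
Level in CPM (y axis) of 8 of the genes in each library (points), by group (x axis), with the mean and SD beside them; the dotted line parts the experiments, whose levels are not on one scale. EZH2 and BMI1 step down and JARID2 and RCOR1 step up from NT through SAFB_KO to HOXA9_KO, while CBX5, CBX1 and RBBP7 are low in HOXA9_KO.

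Promoter sequence is shown here for JARID2 and RCOR1, the members with the largest rises in HOXA9_KO, and short promoter stretches for the 4 members that hold a match to an E2F-type site, the element through which many replication genes are regulated in the cell cycle. Sequences are from RefSeq on GRCh38.p14, read 5′ to 3′ on the gene's strand. The first is the 250 bases before the first JARID2 start site in the table, chr6:15245819-15246068 (plus strand), and the second the 250 bases before that of RCOR1, chr14:102592399-102592648 (plus strand).
JARID2: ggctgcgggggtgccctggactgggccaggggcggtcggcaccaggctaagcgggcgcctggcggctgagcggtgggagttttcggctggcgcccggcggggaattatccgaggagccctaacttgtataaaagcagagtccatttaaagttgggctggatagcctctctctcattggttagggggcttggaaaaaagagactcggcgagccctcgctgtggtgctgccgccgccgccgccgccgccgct
RCOR1: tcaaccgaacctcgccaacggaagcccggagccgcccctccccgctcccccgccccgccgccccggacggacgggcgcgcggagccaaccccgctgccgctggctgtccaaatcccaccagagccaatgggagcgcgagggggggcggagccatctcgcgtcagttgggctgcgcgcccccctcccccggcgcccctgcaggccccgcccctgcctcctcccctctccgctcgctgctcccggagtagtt
Neither stretch holds TTTCCCGC or TTTGGCGC (E2F type), TTTGAA (cell cycle homology type), TGATTTAT (PBX-HOX type) or TGACAG (MEIS type) on either strand. That says only that these letters are not in this window. Of the 36 genes, 33 had at least 1 promoter window of 300 bases in the table, with 46 windows in all. An E2F-type sequence was found in 4 of them, given next as 30-base stretches with the match in capitals. They are chr7:26201428-26201457 (plus strand, CBX3, match at -4 from the start site), chr7:148884272-148884301 (minus strand, EZH2, at 1), chr9:120877322-120877351 (minus strand, PHF19, at -152) and chr17:31936807-31936836 (plus strand, SUZ12, at -189).
CBX3: cggagtccggtTTTGGCGCcagccgctgag
EZH2: gggctgccgcgTTTGGCGCtcggtccggtc
PHF19: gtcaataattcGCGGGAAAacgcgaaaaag
SUZ12: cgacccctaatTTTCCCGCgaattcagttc
CBX3 and EZH2 hold TTTGGCGC, SUZ12 holds TTTCCCGC, and PHF19 holds the latter on the other strand. Over all 35116 windows of the same length, 1.63% hold TTTCCCGC, 0.652% hold TTTGGCGC and 2.27% hold either, against 2, 2 and 4 of the 46 windows of the members. These 4 genes are among the 17 of 36 members that were lower in HOXA9_KO. Under nuclear protein-coding scaling 30 of the 36 were lower. The SUZ12 call was kept in 13 of 17 alternatives. Whether these sequences have a part in the falls was not tested. The cell cycle homology letters TTTGAA were found in SUV39H2, SUZ12 and MBD2, in 3 of the 46 windows (6.52%) and in 15.2% of all windows. TGACAG was found in 6 members (EHMT2, BMI1, MTA2, EZH1, GATAD2A and SUV39H1), in 7 of the 46 windows (15.2%) and in 15.8% of all windows. TGATTTAT was found in none of the 46 and in 0.846% of all windows. A match is a description of the sequence and no evidence of binding.

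In PRC1 the 3 genes that changed in HOXA9_KO all fell. BMI1, the PCGF subunit that stimulates the ubiquitin ligase and is needed for self-renewal of leukemia stem cells (ENSG00000168283.13, chr10:22321211-22331484, plus strand), was at 174, 172 and 169 CPM in NT, 147, 149 and 149.9 CPM in SAFB_KO and 111, 100.1 and 109 CPM in HOXA9_KO. The 3 groups did not overlap. The log2 change was -0.69 ± 0.036 in HOXA9_KO (adjusted p = 2.87e-22) and -0.21 ± 0.036 in SAFB_KO (adjusted p = 3.74e-06, edgeR). BMI1 was at 130.4, 159, 154 and 151 CPM in the controls of the MEIS1 experiment and 143, 144, 136 and 159 CPM in the knockout, and the change of -0.031 ± 0.063 did not pass (adjusted p = 0.815). Of BMI1's exon sequence, 23.3% overlaps another gene on the same strand, which limits how its reads can be assigned. CBX2 and CBX8 are chromodomain subunits that bind the PRC2 mark. CBX2 was at 7.696, 7.34 and 8.32 CPM in NT and 5.34, 4.697 and 5.92 CPM in HOXA9_KO, and fell with a log2 change of -0.54 ± 0.11 (adjusted p = 2.68e-05, edgeR). CBX8 was at 10.5, 12.5 and 12.01 CPM in NT and 7.79, 8.83 and 9.298 CPM in HOXA9_KO, and fell with a log2 change of -0.42 ± 0.092 (adjusted p = 8.83e-05). In both cases the 2 groups did not overlap. In SAFB_KO the log2 changes were -0.024 ± 0.10 for CBX2 and -0.023 ± 0.087 for CBX8, and neither passed.

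CBX2 was the single PRC1 gene called in MEIS1_KO, where it was at 34.7, 25.8, 26.6 and 30.4 CPM in the controls and 22.6, 24.4, 23.2 and 24.1 CPM in the knockout (log2 -0.32 ± 0.081, adjusted p = 0.0206, edgeR). Its call was lost without replicate 1 or 3 of MEIS1_KO or replicate 4 of NT_MEIS1ex. The ubiquitin ligases RING1 and RNF2 were called in none of the 3 knockouts under TMM scaling: RNF2 was at 36.2, 33.2 and 36.4 CPM in NT, 35.7, 35.4 and 36.3 CPM in HOXA9_KO and 34.1, 36.1 and 35.6 CPM in SAFB_KO, with overlapping ranges. RING1 had log2 changes of 0.024 ± 0.067, 0.048 ± 0.066 and -0.048 ± 0.056 in HOXA9_KO, SAFB_KO and MEIS1_KO. Both were lower in HOXA9_KO under nuclear protein-coding scaling (RING1 -0.23, adjusted p = 0.00314, and RNF2 -0.23, adjusted p = 2.22e-04), and RNF2 was lower in SAFB_KO (-0.14, adjusted p = 0.0323). CBX7, the least abundant member, was at 2.02, 1.599 and 2.32 CPM in NT and 2.09, 2.49 and 2.24 CPM in HOXA9_KO, with a log2 change of 0.20 ± 0.19 (adjusted p = 0.363). At that level a change of this size was not detectable. No PRC1 gene was called higher in any of the 3 knockouts by edgeR, by DESeq2 or by limma-voom, and the same count of 0 was had at an unadjusted p below 0.05. By edgeR 27.6%, 20.2% and 4.97% of all tested genes were higher in HOXA9_KO, SAFB_KO and MEIS1_KO, and 29.9%, 15.3% and 3.84% were lower. Of the 6 genes, 5 were lower in HOXA9_KO and 2 in SAFB_KO under nuclear protein-coding scaling. Of all tested genes 49.2% and 29.3% were then lower, so the SAFB_KO share of 33.3% was near that of all genes.

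The 3 HP1 genes fell together in HOXA9_KO. CBX5 encodes HP1 alpha, CBX1 encodes HP1 beta and CBX3 encodes HP1 gamma, which is also found in transcribed genes. CBX5 was at 166, 141 and 143 CPM in NT and 97.7, 107 and 107 CPM in HOXA9_KO (log2 -0.53 ± 0.055, adjusted p = 2.57e-07, edgeR). CBX1 was at 40.6, 40.99 and 38.9 CPM in NT and 30.8, 30.3 and 32.1 CPM in HOXA9_KO (log2 -0.37 ± 0.052, adjusted p = 2.44e-08). CBX3 was at 129, 133 and 129 CPM in NT and 112, 111 and 106 CPM in HOXA9_KO (log2 -0.25 ± 0.036, adjusted p = 5.10e-08). For each of them every HOXA9_KO library lay below every NT library. In SAFB_KO, CBX5 was at 151, 151 and 146 CPM, CBX1 at 39.5, 39.4 and 39.7 CPM and CBX3 at 129.6, 134 and 131 CPM. These overlapped the NT values, with log2 changes of -0.011 ± 0.053, -0.022 ± 0.05 and 0.013 ± 0.035. The direct test of HOXA9_KO against SAFB_KO gave log2 differences of -0.52 ± 0.055 for CBX5 (adjusted p = 7.00e-07), -0.35 ± 0.053 for CBX1 (adjusted p = 3.12e-07) and -0.26 ± 0.036 for CBX3 (adjusted p = 3.81e-08). In MEIS1_KO their log2 changes were -0.032 ± 0.081, 0.019 ± 0.055 and 0.019 ± 0.054, and none passed. The annotation holds 9 pseudogenes of CBX3, 5 of CBX1 and 1 of CBX5, whose reads came to 0.714%, 0.214% and 0.154% of those of the parent gene.

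The H3K9 methyltransferases split by enzyme. SUV39H1 and SUV39H2 trimethylate H3K9 at pericentric heterochromatin. SUV39H2 was at 23.6, 25.7 and 27.4 CPM in NT and 17.9, 19.1 and 19.2 CPM in HOXA9_KO, and fell with a log2 change of -0.44 ± 0.068 (adjusted p = 1.58e-07, edgeR). SUV39H1 was at 16.5, 16.7 and 16.5 CPM in NT and 14.6, 14.4 and 13.7 CPM in HOXA9_KO (-0.22 ± 0.072, adjusted p = 0.00745), a call lost without replicate 3 of HOXA9_KO. EHMT2, the G9a enzyme that dimethylates H3K9, rose instead: it was at 87.2, 93.04 and 97.4 CPM in NT, 114, 111 and 113 CPM in HOXA9_KO and 99.2, 103 and 102 CPM in SAFB_KO. Its log2 change was 0.29 ± 0.039 in HOXA9_KO (adjusted p = 9.97e-09) and 0.13 ± 0.039 in SAFB_KO (adjusted p = 0.00489). Its partner EHMT1 had log2 changes of 0.067 ± 0.05 and -0.013 ± 0.049 that did not pass. SETDB1, which methylates H3K9 at retroelements, was at 118, 126 and 125 CPM in NT, 141, 132 and 143 CPM in HOXA9_KO and 136, 133 and 132 CPM in SAFB_KO, with log2 changes of 0.18 ± 0.037 (adjusted p = 5.20e-05) and 0.12 ± 0.036 (adjusted p = 0.00713). TRIM28, the corepressor that brings SETDB1 to zinc finger proteins, was at 202, 209 and 223 CPM in NT, 230.4, 232 and 233 CPM in HOXA9_KO and 234, 226 and 236 CPM in SAFB_KO. Its log2 change was 0.13 ± 0.034 in HOXA9_KO (adjusted p = 5.98e-04) and 0.13 ± 0.034 in SAFB_KO (adjusted p = 0.00121).

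The rises of EHMT2, SETDB1 and TRIM28 depend on the scaling. With nuclear protein-coding counts as the library size, the log2 changes in HOXA9_KO were 0.035 for EHMT2, -0.076 for SETDB1 and -0.12 for TRIM28, and in SAFB_KO they were -0.0046, -0.018 and -0.0045. None was then higher at the threshold, and TRIM28 in HOXA9_KO passed as lower (adjusted p = 0.001705). In SAFB_KO, SETDB1 and EHMT2 also lost their calls without replicate 1 of NT. In MEIS1_KO none of the 9 genes of this group was called by edgeR, DESeq2 or limma-voom, and 2 were lower at an unadjusted p below 0.05. Over the 9 genes, 5 were lower and 3 higher in HOXA9_KO, and 3 were higher in SAFB_KO, with no gene lower at an adjusted or an unadjusted p below 0.05 or by DESeq2 or limma-voom. Scaled to nuclear protein-coding counts, 7 of the 9 were lower and none higher in HOXA9_KO, and 4 were lower and none higher in SAFB_KO. The 4 were CBX1 (adjusted p = 0.00817), CBX3 (0.00346), SUV39H2 (0.00227) and EHMT1 (0.0111), by edgeR. Over all tested genes, TMM scaling gave 29.9% lower and 27.6% higher in HOXA9_KO, and 15.3% and 20.2% in SAFB_KO. Nuclear protein-coding scaling gave 49.2% lower and 15.2% higher in HOXA9_KO, and 29.3% and 9.07% in SAFB_KO.

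In NuRD, 5 of 13 genes were lower and 2 higher in HOXA9_KO, 38.5% and 15.4% of the complex, against 29.9% and 27.6% of all tested genes. With nuclear protein-coding library sizes 12 were lower and none higher, against 49.2% and 15.2% of all genes. The largest fall was of RBBP7, a histone chaperone that is shared with PRC2 and other complexes. It was at 84.4, 82.6 and 86.2 CPM in NT, 55.4, 56.7 and 60.1 CPM in HOXA9_KO and 77.1, 80.4 and 80.1 CPM in SAFB_KO. The HOXA9_KO libraries lay below all others (log2 -0.55 ± 0.041, adjusted p = 1.34e-16, edgeR), and the change in SAFB_KO did not pass (-0.091 ± 0.04, adjusted p = 0.0752). Its paralog RBBP4 was at 146, 128 and 129 CPM in NT and 109, 112 and 110.4 CPM in HOXA9_KO (log2 -0.28 ± 0.04, adjusted p = 3.07e-08). The remodelling ATPases CHD4 and CHD3 both fell. CHD4 was at 285, 281 and 291 CPM in NT, 235, 236 and 237 CPM in HOXA9_KO and 260.2, 248 and 250.3 CPM in SAFB_KO, with log2 changes of -0.28 ± 0.031 (adjusted p = 1.19e-10) and -0.18 ± 0.031 (adjusted p = 8.77e-06). CHD3 was at 296, 290.3 and 315 CPM in NT, 233, 239 and 233 CPM in HOXA9_KO and 282, 278 and 284 CPM in SAFB_KO, with log2 changes of -0.35 ± 0.032 (adjusted p = 1.53e-13) and -0.094 ± 0.032 (adjusted p = 0.0183). The SAFB_KO call of CHD3 was lost with DESeq2, with RLE size factors, and without replicate 3 of NT or replicate 1 or 2 of SAFB_KO. Of CHD4's exon sequence, 46.9% overlaps another gene on the same strand, so its counts are uncertain.

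Of the deacetylases, HDAC2 fell and HDAC1 did not pass. HDAC2 was at 91.01, 90.3 and 87.5 CPM in NT, 76.9, 82.1 and 75.6 CPM in HOXA9_KO and 87.96, 88.4 and 87.6 CPM in SAFB_KO. The log2 change of HDAC2 was -0.20 ± 0.039 in HOXA9_KO (adjusted p = 2.55e-05, edgeR) and -0.027 ± 0.039 in SAFB_KO (adjusted p = 0.633). HDAC2 was at 211, 219, 213 and 219 CPM in the controls of the MEIS1 experiment and 192, 191, 188 and 188 CPM in the knockout, without overlap (log2 -0.18 ± 0.043, adjusted p = 0.01202, lost without replicate 3 of MEIS1_KO). HDAC1 had log2 changes of 0.064 ± 0.039, 1.2e-04 ± 0.039 and -0.074 ± 0.047 in HOXA9_KO, SAFB_KO and MEIS1_KO. HDAC1 was lower in HOXA9_KO and SAFB_KO under nuclear protein-coding scaling (-0.19 and -0.14, adjusted p = 4.13e-05 and 0.00320). Among the MTA scaffold proteins MTA2 rose and MTA1 and MTA3 did not pass in the first experiment under TMM scaling. MTA2 was at 149.9, 152 and 161 CPM in NT, 168, 167 and 182 CPM in HOXA9_KO and 176, 169.96 and 172 CPM in SAFB_KO, with log2 changes of 0.16 ± 0.036 (adjusted p = 1.32e-04) and 0.16 ± 0.036 (adjusted p = 2.66e-04). Under nuclear protein-coding scaling these were -0.091, which passed as lower, and 0.022, which did not pass. MTA1 and MTA3 were then lower in HOXA9_KO (-0.21 and -0.43, adjusted p = 0.00395 and 7.27e-04, edgeR), and neither passed in SAFB_KO. MTA1 was at 144, 117, 124 and 121 CPM in NT_MEIS1ex and 90.7, 113, 107 and 113 CPM in MEIS1_KO, a log2 change of -0.26 ± 0.075 (adjusted p = 0.04404) that kept its call in 6 of 15 alternatives.

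GATAD2A and GATAD2B link the deacetylase and the remodelling parts of NuRD and exclude each other from the complex. GATAD2A was at 55.05, 56.9 and 59.1 CPM in NT and 63.5, 64.7 and 69.2 CPM in HOXA9_KO, with a log2 change of 0.21 ± 0.045 (adjusted p = 8.88e-05, edgeR) that was -0.043 and not called under nuclear protein-coding scaling. GATAD2B was at 56.7, 51.5 and 54.6 CPM in NT and 46.8, 50.1 and 49.7 CPM in SAFB_KO, with a log2 change of -0.15 ± 0.047 (adjusted p = 0.00942) that was lost without replicate 1 of NT or of SAFB_KO. In HOXA9_KO GATAD2B had -0.0017 ± 0.047 under TMM scaling and did not pass. Under nuclear protein-coding scaling GATAD2B was lower there (-0.25, adjusted p = 1.14e-05, edgeR). The methyl-CpG binding subunits MBD2 and MBD3 were called in none of the knockouts under TMM scaling. With nuclear protein-coding scaling both were lower in HOXA9_KO (MBD2 -0.20, adjusted p = 7.98e-04, and MBD3 -0.22, adjusted p = 8.17e-04), and MBD3 was lower in SAFB_KO (-0.21, adjusted p = 0.00290). MBD2 was at 35.2, 33.1 and 34.3 CPM in NT, 34.8, 35.8 and 35.5 CPM in HOXA9_KO and 35.2, 33.9 and 36.4 CPM in SAFB_KO, and MBD3 had log2 changes of 0.027 ± 0.058 and -0.074 ± 0.057. NuRD thus had 1 gene higher and 3 lower in SAFB_KO, and 2 lower in MEIS1_KO, with none higher there by edgeR, DESeq2, limma-voom or at an unadjusted p below 0.05. All tested genes were higher in 20.2% and lower in 15.3% of cases in SAFB_KO, and 4.97% and 3.84% in MEIS1_KO. The SAFB_KO counts were 0 higher and 8 lower, and the MEIS1_KO counts 0 higher and 1 lower, under nuclear protein-coding scaling. With that scaling 9.07% of all tested genes were higher and 29.3% lower in SAFB_KO, and 6.22% and 2.86% in MEIS1_KO.

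Of the CoREST pair, RCOR1, the scaffold that holds KDM1A on nucleosomes, rose and KDM1A did not in the first experiment. RCOR1 (ENSG00000089902.9, chr14:102592661-102730576, plus strand) was at 68.1, 67.7 and 66.7 CPM in NT, 82.01, 80.5 and 81.6 CPM in SAFB_KO and 92.95, 97.4 and 91.8 CPM in HOXA9_KO. The 3 groups did not overlap. It rose 1.39-fold in HOXA9_KO (log2 0.48 ± 0.039, adjusted p = 2.29e-15) and 1.21-fold in SAFB_KO (log2 0.27 ± 0.039, adjusted p = 1.34e-07, edgeR), and both calls held in all 17 alternatives. In the MEIS1 experiment RCOR1 was at 91.1, 103, 99.6 and 95.4 CPM in the controls and 106, 112, 112 and 107 CPM in the knockout (log2 0.17 ± 0.05, adjusted p = 0.0436), a call kept in 7 of 15 alternatives. KDM1A was at 110.2, 112 and 108 CPM in NT, 108, 109 and 109 CPM in HOXA9_KO and 105, 114 and 113 CPM in SAFB_KO. Its changes there did not pass under TMM scaling, and under nuclear protein-coding scaling it was lower in both (-0.28 and -0.13, adjusted p = 1.23e-08 and 0.00364). In MEIS1_KO it was at 116, 119, 115 and 118 CPM against 135, 133, 130.1 and 126 CPM in the controls (log2 -0.16 ± 0.045, adjusted p = 0.0307), a call kept in 8 of 15 alternatives.

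HOXA9_KO and SAFB_KO share the NT libraries, so their changes were compared directly. Between these knockouts 16 members were lower in HOXA9_KO and 6 higher, where 20.5% of all tested genes were lower and 20.1% higher. The 16 and 6 are 44.4% and 16.7% of the set. Among genes with a mean of at least 10 CPM, 29.4% were lower and 31.7% higher. The largest differences were of EZH2 (-0.65 ± 0.054), CBX5 (-0.52 ± 0.055), CBX2 (-0.52 ± 0.11), BMI1 (-0.48 ± 0.037) and RBBP7 (-0.46 ± 0.042) on the lower side and of JARID2 (0.45 ± 0.038) on the higher. MTA2 and TRIM28 did not differ at the threshold under TMM scaling (-3.5e-04 ± 0.036 and 3.5e-04 ± 0.034). Under nuclear protein-coding scaling both were lower in HOXA9_KO (-0.11 each, adjusted p = 0.00680 and 0.00406, edgeR). Of the 16 lower and 6 higher calls under TMM scaling, 14 lower and 2 higher (JARID2 and RCOR1) held in every alternative. Nuclear protein-coding scaling lowers the median of all genes by 0.11 here, and gave 22 members lower and 2 higher. Over all tested genes, 30.97% were then lower and 12.97% higher. That scaling took the share of higher calls over all genes from 49.4% to 29.5%.

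The HOXA9 effect minus the MEIS1 effect, each against its own controls, differed for 22 members, 11 in each direction (30.6% of the set each), where 24.5% of the 18836 genes tested were higher and 19.7% lower. Among the 9012 genes with a mean of at least 10 CPM, 41.8% were higher and 18.6% lower. In all 24 alternatives the HOXA9 effect was the lower one for CHD3, RBBP7, CBX1, CBX3, CBX5, EZH2, PHF19 and BMI1 and the higher one for JARID2. The difference was -0.79 ± 0.072 for EZH2 (adjusted p = 2.78e-11), -0.61 ± 0.076 for BMI1 (adjusted p = 2.42e-08), -0.57 ± 0.069 for RBBP7 (adjusted p = 1.91e-08) and 0.70 ± 0.063 for JARID2 (adjusted p = 1.90e-11, edgeR). Under nuclear protein-coding scaling the median of all genes moves by -0.32, 24 members were lower and 1 higher, and 19.4% rather than 55.5% of all calls were higher. With it 41.3% of all tested genes were lower and 9.91% higher. The SAFB effect minus the MEIS1 effect was higher for 8 members (22.2%) and lower for 1 (2.78%), where 12.4% of all tested genes were higher and 8.49% lower. Among the genes of at least 10 CPM, 23.7% were higher and 7.79% lower, so the share of higher members was near that of these genes. The lower member was EZH1 (-0.42 ± 0.10, adjusted p = 0.00254, edgeR), called in all 24 alternatives. None of the 8 higher ones held under nuclear protein-coding scaling, which moves the median by -0.17 and gave 0 higher and 8 lower members and 14.9% rather than 59.3% of all calls higher. With it 3.25% of all tested genes were higher and 18.6% lower. The count of higher members was 3 to 5 without replicate 1 or 2 of NT, any 1 SAFB_KO library or replicate 3 of MEIS1_KO. The experiment and the knocked-out gene go together here, and a difference in library composition between experiments cannot be told apart from one in effect.

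**Figure D3:**
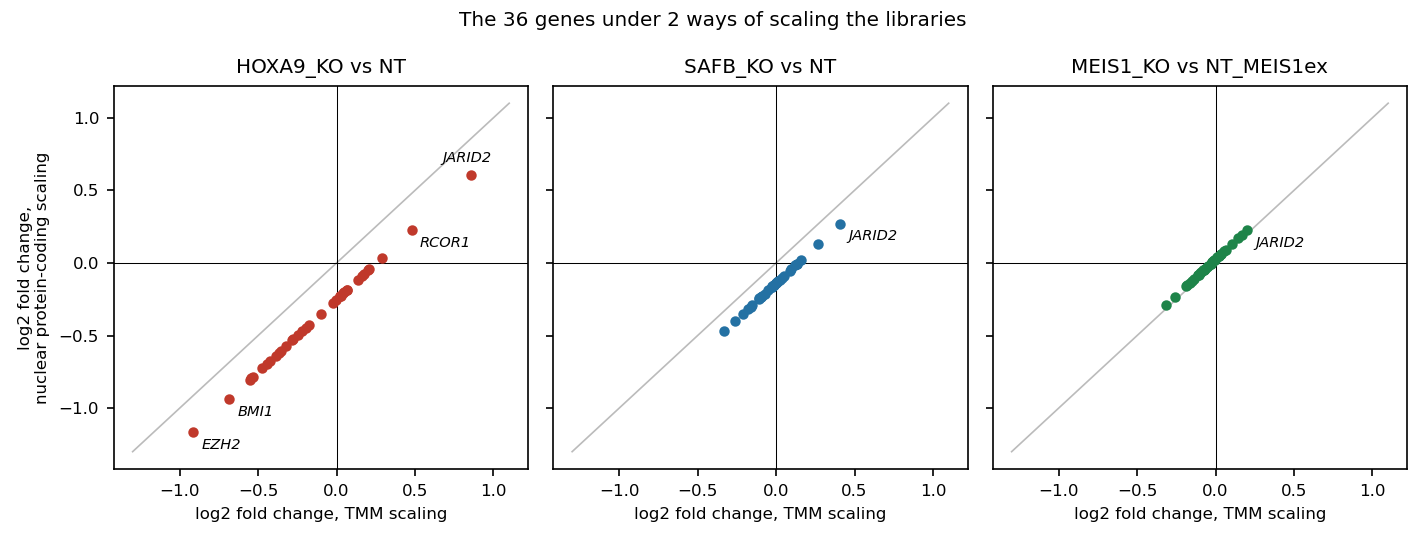
Log2 fold change of the 36 genes (points) under TMM scaling (x axis) and under nuclear protein-coding scaling (y axis) in the 3 knockout comparisons; the grey line marks equal values. In HOXA9_KO the points lie about 0.25 below the line, and JARID2 and RCOR1 stay above 0 while EZH2 and BMI1 stay below.

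Ratios of paralogs within a library do not depend on the scaling. In the HOXA9_KO comparison 11 of the 15 ratios examined did not overlap between knockout and control libraries, against 4 of 15 for SAFB_KO and 3 of 15 for MEIS1_KO. The share over other pairs of genes was not worked out, so these counts cannot be called particular to paralogs. In HOXA9_KO 27.6% of all tested genes were higher and 29.9% lower at an adjusted p below 0.05. Those shares are of single genes that passed a test, and not of ratios that did not overlap. The ratios also share genes, as MTA2, CBX5 and CBX7 each enter more than 1. With 3 libraries against 3 an exact two-sided permutation test cannot go below p = 0.1, and with 4 against 4 not below 0.0286. The smallest Benjamini-Hochberg adjusted p over the 45 tests was 0.205, so no ratio passed. The ratio of EZH2 to EZH1 reads was 1.47 to 1.51 in NT, 0.784 to 0.896 in HOXA9_KO and 1.496 to 1.67 in SAFB_KO, a mean log2 change of -0.82 and 0.07. EZH2 reads thus outnumbered EZH1 reads in NT and SAFB_KO and not in HOXA9_KO. These are reads not divided by exon length, which is 4522 bases for EZH2 and 6988 for EZH1. Per kilobase EZH2 stayed the higher of the pair in HOXA9_KO, at 5.26 ± 0.16 against 4.03 ± 0.16 CPM (SD). The ratio of HDAC1 to HDAC2 was 1.20 to 1.34 in NT and 1.39 to 1.63 in HOXA9_KO. The ratio of CBX8 to CBX7 was 5.17 to 7.81 in NT and 3.55 to 4.14 in HOXA9_KO, and that of CBX2 to CBX7 was 3.58 to 4.59 in NT and 1.89 to 2.64 in HOXA9_KO. RBBP4 to RBBP7 was 1.499 to 1.73 in NT and 1.84 to 1.98 in HOXA9_KO. RNF2 to RING1 overlapped in all 3 comparisons, at 1.60 to 1.90 in NT and 1.61 to 1.90 in HOXA9_KO.

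The ratio of JARID2 to EZH2 was chosen after its values were seen and is given with no test. It was 1.44 to 1.46 in NT, 2.23 to 2.39 in SAFB_KO and 4.94 to 4.95 in HOXA9_KO. In the MEIS1 experiment it was 2.32 to 2.52 in the controls and 2.76 to 3.04 in the knockout. Knockout libraries lay above their controls in all 3 comparisons, with mean log2 changes of 1.77, 0.67 and 0.28. The ratio of BMI1 to RNF2, also chosen after its values were seen, was 4.64 to 5.18 in NT, 4.13 to 4.30 in SAFB_KO and 2.82 to 3.11 in HOXA9_KO. It overlapped in the MEIS1 experiment, at 3.74 to 3.99 in the controls and 3.603 to 4.35 in the knockout. The ratio of EZH2 to SUZ12, chosen in the same way, was 0.5398 to 0.767 in NT and 0.460 to 0.503 in HOXA9_KO, and overlapped its controls in SAFB_KO (0.594 to 0.627) and in the MEIS1 experiment (0.330 to 0.385 in the controls and 0.319 to 0.364 in the knockout).

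**Figure D4:**
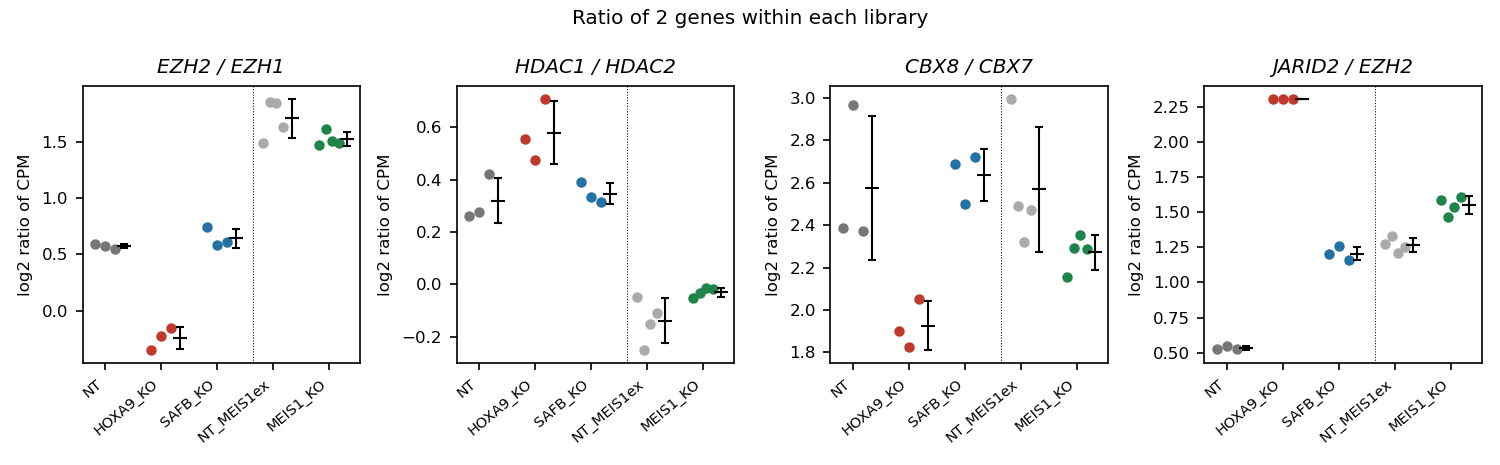
Log2 ratio of the CPM of 2 genes within each library (points, y axis) by group (x axis), with the mean and SD beside them, for EZH2 to EZH1, HDAC1 to HDAC2, CBX8 to CBX7 and JARID2 to EZH2. The JARID2 to EZH2 ratio is higher in each knockout than in its controls, and the EZH2 to EZH1 ratio drops below 0 in HOXA9_KO alone. The ratios are not corrected for exon length, and per kilobase EZH2 stays above EZH1 in HOXA9_KO.

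Per length of exon sequence, the members differ widely in level. In NT, among NuRD genes MTA2 was highest at 36.5 ± 1.42 CPM per kilobase (SD, n = 3), followed by CHD3 at 30.8 ± 1.29 and HDAC1 at 28.2 ± 1.14, and MTA3 was lowest at 0.671 ± 0.062. MBD2, GATAD2B and HDAC2, at 5.88 ± 0.18, 5.87 ± 0.28 and 5.796 ± 0.12 CPM per kilobase, did not differ beyond their spread. In the HP1 and H3K9 group TRIM28 was highest at 52.4 ± 2.63 CPM per kilobase, CBX3 stood at 28.1 ± 0.49, CBX1 at 13.01 ± 0.37 and CBX5 at 9.98 ± 0.93, and EHMT1 was lowest at 1.81 ± 0.07. In PRC2, JARID2 (10.8 ± 0.074), SUZ12 (10.4 ± 2.03) and EZH2 (9.94 ± 0.032) were the highest and EED (2.39 ± 0.095) the lowest, and SUZ12 overlapped both neighbours within its SD. In HOXA9_KO the order within PRC2 was JARID2 at 19.6 ± 0.62, SUZ12 at 7.501 ± 0.28, EZH2 at 5.26 ± 0.16 and EZH1 at 4.03 ± 0.16 CPM per kilobase. In PRC1, BMI1 was highest at 40.1 ± 0.62, then RING1 at 11.1 ± 0.5 and RNF2 at 8.66 ± 0.45, and CBX7 was lowest at 0.265 ± 0.049 CPM per kilobase. MTA2, TRIM28 and BMI1 were also the highest of their groups in NT_MEIS1ex, at 52.8 ± 1.87, 150.1 ± 7.54 and 34.7 ± 2.94 CPM per kilobase (n = 4). Exon length is that of all annotated exons joined, so a gene with long unused exons is understated.

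Other genes of the same complexes, listed apart from the 36, are given here under TMM scaling. All genes tested were higher in 27.6% and lower in 29.9% of cases in HOXA9_KO, 20.2% and 15.3% in SAFB_KO and 4.97% and 3.84% in MEIS1_KO. Of the NuRD-associated genes tested, 4 of 10 were higher and 5 lower in HOXA9_KO. The largest rises were of CDK2AP1 (log2 0.78 ± 0.11) and PWWP2B (log2 0.34 ± 0.083). IKZF2, a zinc finger protein that binds NuRD, fell from 15.8 to 4.14 CPM (log2 -1.94 ± 0.10, adjusted p = 2.47e-22, edgeR), and BCL11A, another such protein, from 40.7 to 17.3 CPM (log2 -1.24 ± 0.064). In SAFB_KO IKZF2 and BCL11A fell as well, with log2 changes of -0.73 ± 0.089 and -0.38 ± 0.059; 1 of the 10 was higher and 3 lower there. In MEIS1_KO 2 of 9 tested were lower, IKZF1 with -0.27 ± 0.042 and BCL11A with -0.17 ± 0.049. Of the HP1 and H3K9 associated genes, 3 of 19 were higher and 5 lower in HOXA9_KO. WIZ (log2 0.31 ± 0.072) and MORC2 (log2 0.24 ± 0.071) had the largest rises. UHRF1, which joins H3K9 methylation to DNA methylation at replication, fell with a log2 change of -0.87 ± 0.041 and the DNA methyltransferase DNMT3B with -0.94 ± 0.099. In SAFB_KO 3 of 19 were higher and 6 lower, DNMT3B with -0.31 ± 0.092. In MEIS1_KO 1 was higher and 1 lower, the latter DNMT3B with -0.27 ± 0.078.

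Of the accessory PRC2 genes, 1 of 6 was higher (PHF1, 0.30 ± 0.06) and 2 lower (MTF2, -0.29 ± 0.052, and AEBP2, -0.21 ± 0.066) in HOXA9_KO. In SAFB_KO and MEIS1_KO edgeR called 0 of the 6 in either direction, with 1 higher in SAFB_KO and 1 lower in MEIS1_KO at an unadjusted p below 0.05. Of the other PRC1 genes, 6 of 21 were higher and 8 lower in HOXA9_KO. RYBP and PCGF1, which belong to PRC1 forms without CBX proteins, rose with log2 changes of 0.65 ± 0.083 and 0.52 ± 0.076. SCMH1 (-0.71 ± 0.06) and PCGF5 (-0.56 ± 0.085) fell. In SAFB_KO 4 of 21 were higher, with RYBP at 0.31 ± 0.084 and KDM2B at 0.29 ± 0.04, and 4 lower, with PCGF5 at -0.29 ± 0.082 and SCMH1 at -0.23 ± 0.057. In MEIS1_KO edgeR called 0 of 21, with 1 higher and 2 lower at an unadjusted p below 0.05. Of the CoREST, SIN3 and NCOR genes, 8 of 21 were higher and 8 lower in HOXA9_KO. SIN3B (0.53 ± 0.072) and PHF21A (0.38 ± 0.059) were the largest rises there and RCOR2 (-1.20 ± 0.21), a paralog of RCOR1, and GSE1 (-0.51 ± 0.042) the largest falls. In SAFB_KO 2 of 21 were higher, SIN3B with 0.19 ± 0.073 and HDAC3 with 0.18 ± 0.038. There 5 were lower, with RCOR2 (-0.48 ± 0.20) and RCOR3 (-0.23 ± 0.049) the largest falls. In MEIS1_KO 1 was higher (PHF21A, 0.21 ± 0.056) and 2 lower (RCOR2, -0.44 ± 0.12, and GSE1, -0.17 ± 0.052).

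These counts depend on the scaling. Under nuclear protein-coding scaling, where 15.2% of all genes were higher and 49.2% lower in HOXA9_KO, the NuRD-associated genes had 1 higher and 5 lower of 10, those of HP1 and H3K9 0 and 15 of 19, accessory PRC2 genes 0 and 3 of 6, other PRC1 genes 4 and 15 of 21, and those of CoREST, SIN3 and NCOR 1 and 14 of 21. In SAFB_KO, where 9.07% of all genes were higher and 29.3% lower under that scaling, the counts were, in the same order, 0 and 5, 0 and 8, 0 and 2, 1 and 9, and 0 and 10. In MEIS1_KO, where 6.22% were higher and 2.86% lower, they were 0 and 1 of 9, 1 and 0, 0 and 0, 0 and 0, and 1 and 1. Of the genes named from these lists, PWWP2B, WIZ, MORC2, PHF1 and PHF21A were then not called in HOXA9_KO. Nor were RYBP, SIN3B and HDAC3 in SAFB_KO or BCL11A, DNMT3B and GSE1 in MEIS1_KO.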

How the data were processed

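Gene-level RNA-seq read counts of 17 libraries were analysed, as deposited by the authors. Per the labels' protocols, total RNA was depleted of ribosomal RNA and made into libraries with a directional kit, read as paired reads of 150 bases. The submitters' processing notes name Trim Galore, STAR 2.7.10a and HTSeq 1.99.2 and the genome build hg38; no annotation or strand setting of the counting is named in them, so reads of genes that overlap on opposite strands may not be separated. The deposited counts are whole numbers per Ensembl gene, and the summary rows of HTSeq, which name no gene, were left out of library sizes. Of the 58278 identifiers, 57937 match GENCODE 29 by stable identifier, which was used for symbols, positions and exon lengths.

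Each knockout was compared with the controls of its own experiment by edgeR 4.0.16 in R 4.3.3 (filterByExpr with a minimum count of 10, TMM scaling, robust quasi-likelihood fit, group as the only term), with 9 libraries in the HOXA9 and SAFB fit, 8 in the MEIS1 fit and 17 in the fit of differences between effects. P-values were adjusted over all genes tested, with 0.05 as the threshold. In simulated counts of the HOXA9_KO comparison (18612 genes) the fit recovered 67% of genes changed by 0.5 and 90% of those changed by 1 on the log2 scale. Alternatives were RLE factors, nuclear protein-coding library size, other filters, DESeq2 1.42.0, limma-voom (limma 3.58.1), the replicate number as a block, only the compared groups, and leaving out each library. Ratios of paralogs were tested by exact permutation with scipy 1.17.1. Promoter sequences are from RefSeq. All 36 members are named, with the targeted genes. Genes named from the lists of other repressor genes and of erasing enzymes are among the 2 largest rises or falls of a list in a comparison. These were taken from called genes with at least 2 CPM, and not all of them are named. The members and lists were chosen with earlier results of these data known.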

Additional observations from a re-analysis of the deposited data

Results flagged for a closer look

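Of 72 sets of 4 libraries of one group (36 genes in NT_MEIS1ex and in MEIS1_KO), 5 held a library that stands apart from the other 3, and chance alone gives about 1 set in 20. In replicate 1 of NT_MEIS1ex, CHD4 was at 430.8 CPM against 388.5 to 392.1 CPM in the other libraries, CBX1 at 54.2 CPM against 47.8 to 48.9 CPM, and RNF2 at 33.6 CPM against 39.8 to 40.2 CPM. MBD3 was at 97.3 CPM in replicate 1 of MEIS1_KO against 111.8 to 112.8 CPM in the others. SETDB1 was at 119.3 CPM in replicate 4 of MEIS1_KO against 125.5 to 125.9 CPM. None of these 5 genes passed the test of MEIS1_KO against its controls.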

How the results depend on the processing

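Across all alternatives 15 of the 17 falls and 2 of the 7 rises in HOXA9_KO were kept, 4 of 6 falls and 2 of 6 rises in SAFB_KO, and 0 of 4 falls and 0 of 2 rises in MEIS1_KO; the causes of the losses were not tested. With nuclear protein-coding library sizes the numbers of members higher and lower were 2 and 30 in HOXA9_KO, 2 and 18 in SAFB_KO, 2 and 2 in MEIS1_KO, 2 and 22 between HOXA9_KO and SAFB_KO, 1 and 24 for the HOXA9 minus MEIS1 effect and 0 and 8 for the SAFB minus MEIS1 effect. The matching shares of all tested genes are given with each comparison above. Under nuclear protein-coding scaling 12 members changed sign in HOXA9_KO, 13 in SAFB_KO, 7 between these, 5 in MEIS1_KO, 13 for the HOXA9 minus MEIS1 effect and 15 for the SAFB minus MEIS1 effect. Of these 11, 7, 1, 0, 12 and 1 passed the threshold under either scaling and are given next. The log2 values were, in HOXA9_KO, MTA1 -0.21, MTA2 -0.091, HDAC1 -0.19, MBD2 -0.20, MBD3 -0.22, GATAD2A -0.043, TRIM28 -0.12, SETDB1 -0.076, EHMT1 -0.18, RING1 -0.23, RNF2 -0.23. In SAFB_KO they were HDAC1 -0.14, CBX3 -0.13, TRIM28 -0.0045, SETDB1 -0.018, EHMT2 -0.0046, RNF2 -0.14, KDM1A -0.13. Between HOXA9_KO and SAFB_KO it was TRIM28 -0.11. For the HOXA9 effect minus the MEIS1 effect they were MTA2 -0.052, HDAC1 -0.14, HDAC2 -0.29, MBD2 -0.24, MBD3 -0.24, GATAD2B -0.14, TRIM28 -0.032, SETDB1 -0.14, EHMT1 -0.19, RING1 -0.21, RNF2 -0.24, KDM1A -0.14. For the SAFB effect minus the MEIS1 effect it was HDAC2 -0.011. These shifts follow from that scaling's construction, which moves all genes of a library together. With a mean of at least 2 CPM, 10 members were lower in SAFB_KO, 6 higher for the HOXA9 minus MEIS1 effect, and 2 higher and 5 lower for the SAFB minus MEIS1 effect. With no filter, 1 was higher in MEIS1_KO and 7 for the HOXA9 minus MEIS1 effect; the cause was not tested. Leaving out one library in turn gave 7 to 8 higher and 15 to 17 lower for HOXA9_KO, 4 to 7 higher and 4 to 6 lower for SAFB_KO, 5 to 6 higher and 14 to 17 lower for HOXA9_KO against SAFB_KO, 0 to 2 higher and 0 to 4 lower for MEIS1_KO, 8 to 11 higher and 8 to 12 lower for the HOXA9 minus MEIS1 effect, 3 to 8 higher and 1 to 2 lower for the SAFB minus MEIS1 effect. The shares of all tested genes with these filters, or with a library left out, are not given here or above. These counts thus cannot be called particular to the members. With 0.5 counts added, and with any one library left out, the paralog ratios moved by less than 1 SD between replicates.

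Replicate numbers are shared between groups, and libraries with the same number did not deviate together: the correlation of their deviations was -0.012 to 0.020 in the HOXA9 and SAFB experiment and -0.15 to 0.089 in the MEIS1 experiment. With the replicate block, 1 member was higher and 2 were lower in MEIS1_KO, and the other counts stayed within 1.5 times. The shares of all tested genes with the block are not given here.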

Other observations

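Enzymes that remove repressive histone marks were listed apart from the 36 genes: demethylases of H3 lysine 27 and lysine 9, BAP1, an H2A deubiquitinase, with its partners ASXL1 and ASXL2, and USP16, another H2A deubiquitinase. In HOXA9_KO 7 of 14 were higher and none lower (edgeR; also none lower at an unadjusted p below 0.05), with a median log2 change of 0.086. Of all genes tested 27.6% were higher, and of those with a mean of at least 10 CPM 44.7%, a share near that of the list. Under nuclear protein-coding scaling, which lowers the median of all genes by 0.25, 1 of the 14 was higher and 9 were lower, and the median was -0.17. With it 15.2% of all tested genes were higher and 49.2% lower. KDM7A, a demethylase of both marks, rose from 11.9 to 16.8 CPM (log2 0.50 ± 0.083, adjusted p = 9.98e-07) and KDM4B rose with 0.24 ± 0.067. In SAFB_KO 2 were higher and 2 lower, and KDM7A fell with a log2 change of -0.29 ± 0.087 (adjusted p = 0.00776). In MEIS1_KO KDM7A was the single gene of the list called, and fell from 20.6 to 14.2 CPM (log2 -0.53 ± 0.085, adjusted p = 6.52e-04). KDM7A kept its call and direction in all 3 comparisons under nuclear protein-coding scaling (0.25, -0.42 and -0.51), and KDM4B was not called in HOXA9_KO (-0.0097). In SAFB_KO 7 genes of the list were then lower and none higher, where 29.3% of all tested genes were lower and 9.07% higher.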
